A study of Mus musculus with 8 samples.

Results

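SN4741 is a neural precursor line from the embryonic mouse midbrain that carries a temperature-sensitive SV40 large T antigen, and the study asked whether it can stand in for midbrain dopaminergic neurons. The cells described here came from the 4 cultures that were moved to 39 °C in medium with 0.5% serum for 48 hours, and the other 4 cultures were kept at 37 °C with 10% serum, so that temperature and serum cannot be told apart. All 8 cultures were wild type by their labels and belong to a single immortalized line, which the study describes as polyploid and karyotypically unstable. Each culture gave 1 droplet-based 3′ single-cell library with unique molecular identifiers (UMIs, 1 per captured transcript).

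Cells rich in 4 transcripts that mark immature neurons, Celf5, Nova2, Dpysl5 and Cacna1b, were chosen within each 39 °C library. A cell was kept with at most 15% of its UMIs from mitochondrially encoded genes, 200 to 6000 detected genes and at least 5000 UMIs, which left 8133 of the 10130 cells deposited at 39 °C and 19125 in the whole series. The 10% of cells with the highest share of UMIs from the 4 genes were chosen by that measured share in each library, 95, 238, 232 and 248 cells in replicates 1 to 4, or 813 in all. They were compared with the 4068 cells of the same libraries at or below the library's median share, called low-score cells below. The share was itself a measured value, so the 4 genes are described in these cells but were not tested there.

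The 4 score genes act in different compartments of a young neuron. Celf5 (ENSMUSG00000034818, chromosome 10, 81459227 to 81482709, GRCm38) encodes an RNA-binding protein of the CELF family, which controls splicing, translation and stability of transcripts in the brain. Nova2 is a neuronal splicing regulator. Dpysl5 (CRMP5) belongs to the collapsin response mediator proteins, which act on the cytoskeleton of growth cones, and Cacna1b encodes the pore-forming subunit of the N-type calcium channel that triggers transmitter release at synapses. In newborn neurons such genes are switched on together with tubulin, doublecortin and ELAVL genes as progenitor genes such as Nes are switched off.

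Celf5 alone made up nearly the whole score. Of the score UMIs in all kept 39 °C cells, Celf5 gave 94.3% ± 0.37 (SD, n = 4 libraries), Dpysl5 2.66% ± 0.14, Cacna1b 2.53% ± 0.22 and Nova2 0.50% ± 0.12. The chosen cells are therefore called Celf5-high cells. Their Celf5 level was 554 ± 38.2 counts per 1000000 UMIs (CPM) against 54.0 ± 5.11 CPM in low-score cells and 178.9 ± 7.17 CPM in all kept cells. Dpysl5 stood at 19.6 ± 1.36 against 1.28 ± 0.74 CPM, and Cacna1b at 16.4 ± 3.60 against 1.01 ± 0.19 CPM. Nova2 was nearly absent, with 13 UMIs in the 813 Celf5-high cells and 19 in the 4068 low-score cells.

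Few UMIs decided whether a cell was chosen. The median Celf5-high cell carried 9, 6, 5 and 5 score UMIs in replicates 1 to 4, and between 56.8% and 74.6% of the chosen cells of a library had UMIs of a single score gene. Cells with 3 or 4 of the genes made up 6.32%, 2.94%, 1.72% and 0.40% of them. The last cell inside the limit lay at 390.95, 439.2, 417.4 and 456.9 CPM of score UMIs in replicates 1 to 4, and the first cell outside at 388.05, 439.0, 417.0 and 456.5 CPM. The histogram of the share has no gap at the limit in any library, so the limit cuts a continuous range of measured shares. With so few score UMIs per cell, the histogram cannot tell whether a separate population lies within that range.

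**Figure D1:**
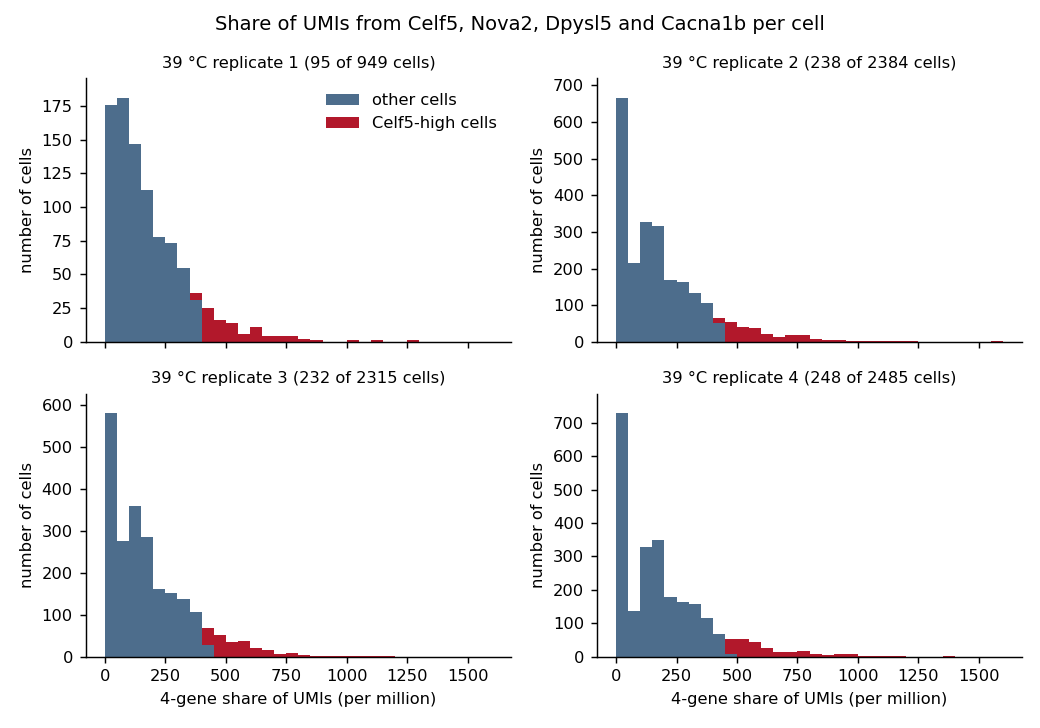
Share of UMIs from the 4 score genes per kept cell (x axis, CPM in bins of 50) against the number of cells (y axis) in the 4 libraries at 39 °C, with Celf5-high cells in red and all other cells in blue. The counts show no gap at the limit, and the red cells, 95, 238, 232 and 248 in replicates 1 to 4, form the right-hand tail.

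The libraries differed in depth. The pools of Celf5-high cells held 1689539 to 2552128 UMIs per library and those of low-score cells 8418245 to 13560559. Replicate 1 at 39 °C stood apart, with the fewest kept cells (949 against 2315 to 2485) and the deepest cells (median 17053 UMIs against 8073 to 10631). Counts of replicate 1 differed from those of the other 39 °C libraries by a chi-square of 16.2 to 24.1 per degree of freedom, and the other pairs by 2.80 to 6.43. Any pair of libraries shared at most 4 cell barcodes, and Celf5-high cells shared none. Both pools of a comparison came from the same library, so p-values refer to how the difference between pools varied among these libraries. In the gene tests this variation was estimated with help from all genes tested, so a p-value does not rest on a gene's own 4 differences alone. Nothing in the labels says that the 4 cultures came from separate passages, so the spread among libraries may be technical.

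Each score gene was next tested in cells that it had not helped to choose, by ranking the cells on the other 3 genes. For Dpysl5, Cacna1b and Nova2 the comparison cells were again the lower part of the ranking, but for Celf5 they were all or nearly all other cells (799, 2148, 2064 and 2269 in replicates 1 to 4), since most cells tied at a share of 0. Celf5 stood at 281, 250.4, 265 and 265 CPM in the chosen pools of replicates 1 to 4 and at 157, 172, 159 and 179 CPM in the comparison pools. All chosen pools lay above all comparison pools, and the log2 fold change was 0.65 ± 0.045 (SE; adjusted p = 7.32e-15 in edgeR's quasi-likelihood test). Dpysl5 stood at 14.5, 11.2, 14.0 and 8.51 CPM in the chosen pools and at 3.20, 3.15, 2.28 and 2.65 CPM in the others, a log2 fold change of 2.13 ± 0.22 (adjusted p = 7.09e-11, edgeR). Cacna1b was higher to a like degree, with 16.6, 7.87, 10.9 and 10.5 against 2.37, 2.64, 2.14 and 3.74 CPM and a log2 fold change of 2.07 ± 0.24 (adjusted p = 5.46e-10, edgeR). Nova2 had 7 UMIs in the chosen pools and 38 in the others, and its log2 fold change of -0.04 ± 0.61 (adjusted p = 0.966, edgeR) left it undecided at this depth. Against all other cells, the log2 fold changes of Celf5, Dpysl5 and Cacna1b were 0.64, 1.5 and 1.46. Celf5, Dpysl5 and Cacna1b thus occurred in the same cells more than in the rest of the library.

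Other markers of immature neurons went against the label. Of 7 markers outside the score, Dcx and Elavl4 had no UMI in either pool, Elavl3 had 0 in Celf5-high and 1 in low-score cells, and the summed level of all 7 was 55.9 to 81.0 CPM in Celf5-high cells against 92.9 to 113 CPM in low-score cells. Stmn2, a microtubule-destabilizing protein of growth cones, was at 35.0 ± 6.73 CPM in Celf5-high and 58.4 ± 7.51 CPM in low-score cells, a log2 fold change of -0.75 ± 0.091 (adjusted p = 1.15e-07, edgeR). Map2, the dendritic microtubule protein, fell from 35.0 ± 0.92 to 18.8 ± 4.88 CPM, a log2 fold change of -0.91 ± 0.12 (adjusted p = 6.60e-07, edgeR). Tubb3, the neuronal tubulin, was at 12.3 ± 0.92 against 9.09 ± 1.74 CPM, higher in 4 of 4 libraries, but its log2 fold change of 0.39 ± 0.17 did not pass the test (adjusted p = 0.0589, edgeR). Mature neuron markers were close to 0 in both pools, at 2.48 to 4.27 CPM for the 6 markers together in Celf5-high cells and 5.87 to 7.01 CPM in low-score cells. Snap25 had no UMI in either.

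Across all genes the Celf5-high cells differed widely from low-score cells of their own library. An adjusted p under 0.05, the limit for a call, was reached by 5612 of 11908 genes tested (47.1%), with 2959 higher (24.8%) and 2653 lower (22.3%) in Celf5-high cells. A log2 fold change over 1 in size was reached as well by 1029 genes (8.64%), 587 of the higher genes (4.93%) and 442 of the lower ones (3.71%). In 41.4% of all genes tested, the 4 pools of Celf5-high cells lay wholly above or below the 4 pools of low-score cells. The median gene shifted by -0.02 on the log2 scale. Without replicate 1, which stood apart, 5237 genes were called.

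Among genes with at least 20 CPM in the higher pool, the 8 largest rises were those of Evpl, Hs3st6, Tlr2, Cnst, Bglap2, Abcb1a, Slc29a4 and Fam13c. Evpl (ENSMUSG00000034282, chromosome 11, 116220559 to 116238077, GRCm38) encodes envoplakin, a plakin of desmosomes and the cornified envelope of epithelia. Its level was 66.6, 44.5, 45.6 and 50.2 CPM in Celf5-high pools and 5.49, 5.20, 4.80 and 6.63 CPM in low-score pools, a log2 fold change of 3.20 ± 0.12 (adjusted p = 2.57e-17, edgeR). Hs3st6 (ENSMUSG00000039628, chromosome 17, 24752988 to 24758684), a heparan sulfate 3-O-sulfotransferase, was nearly equal in the 4 Celf5-high pools at 67.7, 65.7, 66.5 and 64.6 CPM. It stood at 7.94, 8.50, 7.12 and 10.7 CPM in low-score pools, a log2 fold change of 2.95 ± 0.11 (adjusted p = 1.22e-17, edgeR). Cnst (ENSMUSG00000038949, chromosome 1, 179546370 to 179627478) encodes consortin, which helps carry connexins to the cell surface. Its pools held 133, 96.2, 84.5 and 99.4 CPM against 11.4, 12.7, 12 and 18.3 CPM, a log2 fold change of 2.89 ± 0.11 (adjusted p = 2.19e-17, edgeR).

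Tlr2 (ENSMUSG00000027995, chromosome 3, 83836272 to 83841767), the receptor for bacterial lipoproteins, was at 50.8, 32.2, 26.0 and 27.5 CPM in Celf5-high pools and 3.85, 4.13, 4.14 and 4.9 CPM in low-score pools. Its log2 fold change was 2.94 ± 0.16 (adjusted p = 3.49e-14, edgeR), and replicate 1 was the highest of the 4 Celf5-high pools. The drug efflux pump Abcb1a and the monoamine and cation transporter Slc29a4 rose by 2.62 ± 0.17 and 2.58 ± 0.19, and Fam13c by 2.57 ± 0.14 (SE, log2). The osteocalcin gene Bglap2 rose by 2.65 ± 0.14, from 7.90 ± 1.97 to 50.4 ± 12.1 CPM, but shares near-identical sequence with Bglap, so its value is uncertain. All 8 genes were higher in 4 of 4 libraries, which their choice required. Their pools did not overlap, as was so for 41.4% of all genes tested.

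Transcripts of these genes were found in more cells. With every cell thinned to 5000 UMIs, Hs3st6 was detected in 25.3% ± 2.39 of Celf5-high cells and 3.99% ± 0.50 of low-score cells (39.8% and 7.86% before thinning). For Cnst the thinned shares were 28.6% ± 4.48 and 6.30% ± 1.19 (39.7% and 12.8% before), and for Evpl 15.2% ± 2.72 and 2.26% ± 0.37 (26.1% and 4.77% before). The share that free RNA gives in cells without these genes was not estimated, so only the shares in low-score cells stand beside them.

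The 8 largest falls were those of Acta2, Tm4sf1, Gsta4, Grem1, Phgdh, Spp1, Thbs1 and Ccl2. Spp1 (ENSMUSG00000029304, chromosome 5, 104435118 to 104441050), which encodes the secreted phosphoprotein osteopontin, was at 257, 141, 92.9 and 114 CPM in Celf5-high pools and at 627, 617, 692 and 580 CPM in low-score pools. The pools did not overlap, and the log2 fold change was -2.12 ± 0.12 (adjusted p = 3.46e-14, edgeR). Thbs1 (ENSMUSG00000040152, chromosome 2, 118111876 to 118127133), the matrix glycoprotein thrombospondin, went from 113, 115, 124 and 128 CPM in low-score pools to 25.1, 22, 35.6 and 43.9 CPM, a log2 fold change of -1.92 ± 0.094 (adjusted p = 2.76e-15, edgeR). Phgdh (ENSMUSG00000053398, chromosome 3, 98313170 to 98339990), the first enzyme of serine synthesis, went from 33.9, 39.4, 40.4 and 38.8 CPM to 11.7, 5.93, 4.81 and 8.68 CPM, a log2 fold change of -2.37 ± 0.16 (adjusted p = 2.59e-12, edgeR).

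Acta2 (ENSMUSG00000035783, chromosome 19, 34241090 to 34255590), smooth muscle actin, had the largest fall, -3.23 ± 0.27 (adjusted p = 1.13e-10, edgeR). Its low-score pools held 20.8, 35.7, 28.0 and 40.2 CPM and its Celf5-high pools 1.17, 0.42, 1.20 and 11.1 CPM. It was carried by few cells, with a UMI in 7.02% ± 0.81 of low-score cells and 1.66% ± 1.04 of Celf5-high cells (4.62% ± 0.22 and 0.40% ± 0.81 after thinning). When the cells were thinned to 5000 UMIs before they were ranked, its log2 fold change was -0.35 (adjusted p = 0.214, edgeR). Tm4sf1, a tetraspan membrane protein, fell by 2.98 ± 0.25, the BMP antagonist Grem1 by 2.66 ± 0.24, and Gsta4, a glutathione transferase for lipid peroxidation products, by 2.67 ± 0.21 (SE, log2). The monocyte chemokine Ccl2 fell by 1.91 ± 0.15.

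**Figure D2:**
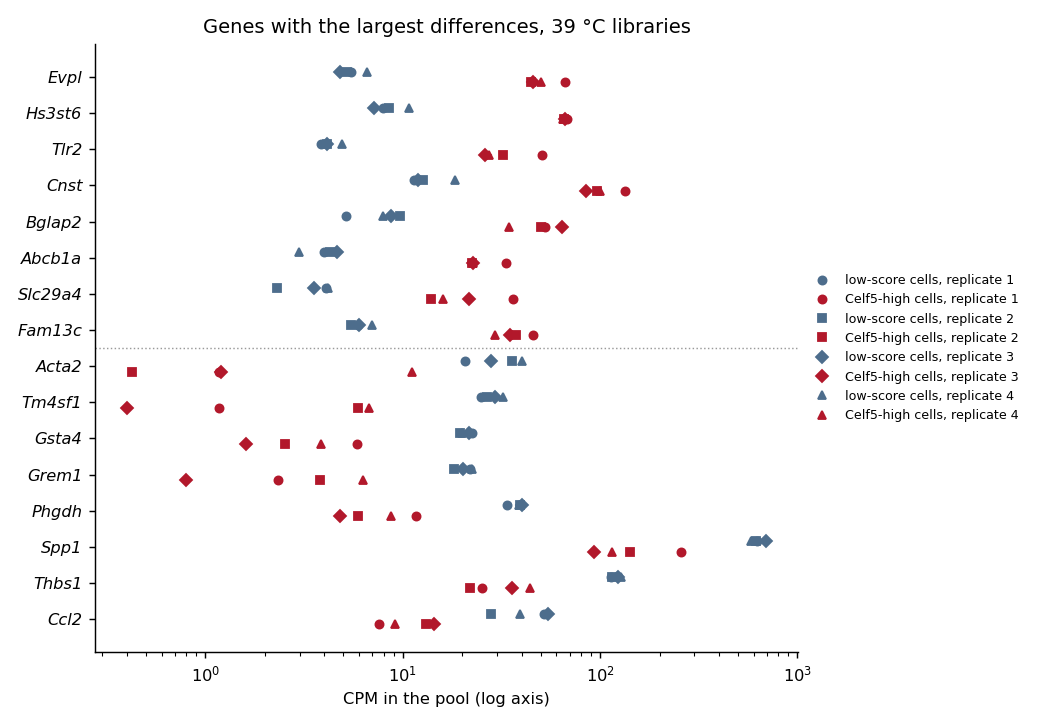
Level in the pool of each 39 °C library (x axis, CPM, log scale) for the 8 largest rises (above the dotted line) and the 8 largest falls (below it), with Celf5-high pools in red, low-score pools in blue and a symbol per replicate. In all 16 genes the 4 red points lie on one side of the 4 blue points, as in 41.4% of all genes tested. The genes were chosen for the same direction in all 4 libraries.

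Cells with a middle share had middle levels of the leading genes. Cells were split within each library into those without a score UMI, those above 0 up to the median, those between the median and the top 10%, and the Celf5-high cells. In 15 of the 16 leading genes the cells between the median and the top 10% lay between Celf5-high cells and cells without a score UMI in 4 of 4 libraries, and in 5 genes all 4 bands were in order in every library. Acta2 was the exception, with 3 of 4 libraries. Spp1 went from 773 ± 89.5 CPM in cells without a score UMI through 531 ± 74.9 and 317 ± 44.6 to 150.5 ± 75.8 CPM in Celf5-high cells (SD, n = 4), and Hs3st6 from 6.90 ± 1.47 through 9.95 ± 2.56 and 21.7 ± 1.09 to 65.3 ± 2.30 CPM. Levels by band are CPM of the band without further scaling. The genes had been picked for the difference between Celf5-high cells and the low-score cells, which hold both lower bands, so only the band between the median and the top 10% lay outside that choice.

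**Figure D3:**
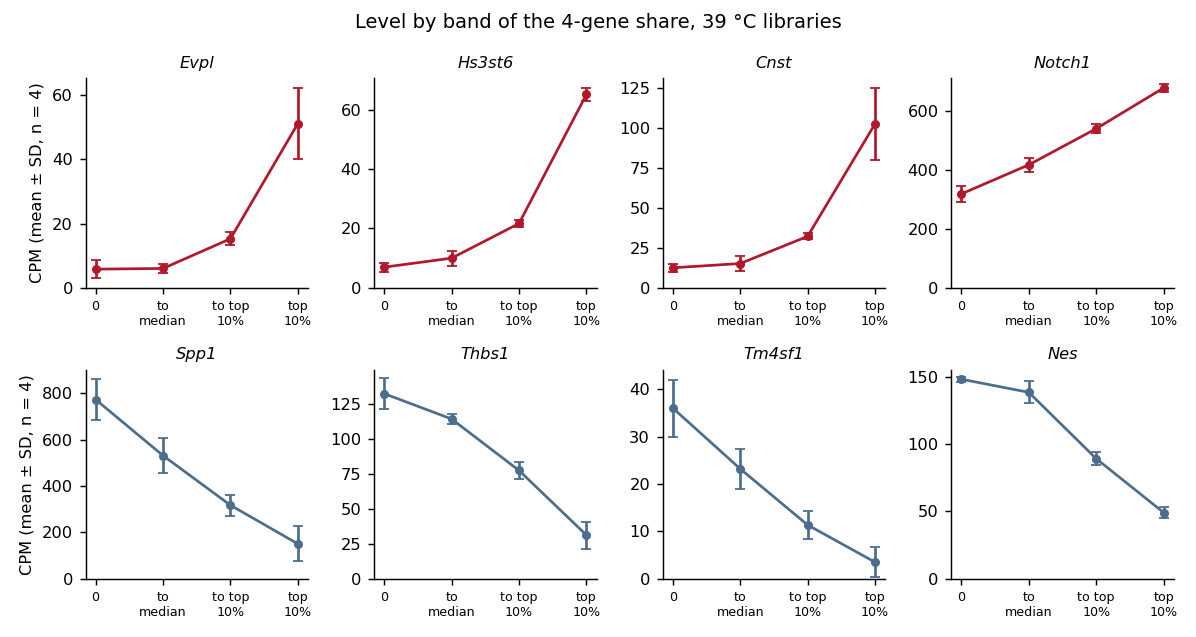
Level (y axis, CPM, mean ± SD of 4 libraries at 39 °C, axes from 0) of 4 higher and 4 lower genes in 4 bands of cells by their 4-gene share (x axis, from cells without a score UMI to the top 10%). Spp1 runs down from 773 to 150.5 CPM and Hs3st6 up from 6.90 to 65.3 CPM over the bands.

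Ranking the cells without Celf5 gave fewer and smaller differences, but it also changed the comparison cells. Most cells had no UMI of the other 3 genes and tied at the median, so that the comparison pools held 799, 2148, 2064 and 2269 cells in replicates 1 to 4 in place of 475, 1192, 1158 and 1243, which is all cells that were not chosen in replicates 2 and 4. When the cells were ranked on Nova2, Dpysl5 and Cacna1b alone, 2829 of 12439 genes were called (22.7%), of which 2624 were among the 5612, each with the same sign. All 16 leading genes kept their direction with an adjusted p under 0.05 (edgeR), at smaller sizes. Evpl was at 1.61, Hs3st6 at 1.28, Spp1 at -1.24 and Acta2 at -0.37 on the log2 scale. With the Celf5-high cells set against all other cells of their library, 5057 genes were called, and the same genes were at 2.35, 2.18, -1.76 and -3.12. The ranking without Celf5 was added after it was seen that Celf5 gave most of the score. It used 3 of the 4 score genes in the same libraries, and the 16 genes came from the main comparison. Part of the shared calls and signs was therefore built in, and the overlap of the chosen cells is not given here.

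Genes of the neuronal cytoskeleton were lower in Celf5-high cells. Of 17 genes tested from a list of the CRMP family, tubulins and other neuronal cytoskeletal genes, 0 were called higher and 14 lower (22.3% of all genes were), with a median log2 fold change of -0.75 against -0.02 for all genes. The list overlaps the immature neuron markers given above, as in Gap43, so it is not a separate result. Tubb2a, a beta tubulin of neurons, was at 21.6, 16.1, 17.6 and 16.9 CPM in Celf5-high pools and 44.1, 40.6, 40.4 and 37.3 CPM in low-score pools, a log2 fold change of -1.18 ± 0.11 (adjusted p = 5.90e-10, edgeR). Uchl1, a neuronal deubiquitinase, had 16 UMIs in Celf5-high and 229 in low-score cells, and Gap43, of growth cones, 9 and 126 UMIs. Both were called lower (adjusted p = 0.00122 and 0.0126, edgeR), but Gap43 missed the threshold in DESeq2 (adjusted p = 0.104) and both did so in thinned cells. Gap43 also missed it without replicate 3 (adjusted p = 0.141, edgeR). Dpysl2 and Dpysl3, which belong to the CRMP family as Dpysl5 does, were called lower, at -0.66 and -0.29. Both were added outside the rule for naming genes.

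Genes related to the other score genes showed small changes. For comparison, 24.8% of all genes were called higher and 22.3% lower. Of 11 neuronal RNA-binding protein genes tested, 3 were called higher and 0 lower, with a median of -0.03. They were Ptbp1, a splicing repressor that is typically high in non-neuronal cells and progenitors (100.1 ± 1.70 to 165.7 ± 5.09 CPM, log2 fold change 0.72 ± 0.052), Celf4 (0.53 ± 0.056) and the widely expressed Celf1 (0.32 ± 0.057). Celf4 went from 124, 132, 123 and 128 CPM in low-score pools to 186, 191, 198 and 157 CPM in Celf5-high pools. Of 7 voltage-gated calcium channel subunits tested, 3 were called higher and 2 lower, with a median of 0.05. The L-type channel gene Cacna1c was at -0.92 ± 0.18, from 13 ± 1.43 to 6.78 ± 1.21 CPM. Cacna1e (0.86 ± 0.31) and the beta subunit Cacnb1 (0.76 ± 0.21) were called higher, with 33 and 78 UMIs in Celf5-high cells (adjusted p = 0.0246 and 0.00327, edgeR), and both lost the call without replicate 2, at adjusted p = 0.0680 and 0.0727. Cacna1e also lost it without replicate 3 or without replicate 4 (adjusted p = 0.146 and 0.0541, edgeR), in DESeq2 (0.159), against all other cells (0.118), with at most 10% mitochondrial UMIs (0.265) and with the top 5% of cells (0.216).

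Synaptic vesicle genes were mixed, with a median of -0.22. Of 12 tested, 4 were called higher and 5 lower (24.8% and 22.3% of all genes). Vamp2, a vesicle SNARE, was at 69.5, 69.5, 72.9 and 69.9 CPM in Celf5-high pools and 25.9, 33.0, 28.4 and 34.0 CPM in low-score pools, a log2 fold change of 1.21 ± 0.083 (adjusted p = 2.29e-12, edgeR). The vesicle genes Syngr1 and Syn1 were called lower, at -1.11 ± 0.23 and -0.90 ± 0.30, on 37 and 22 UMIs in Celf5-high cells. Syn1 lost its call without replicate 2 or without replicate 3 (adjusted p = 0.0653 and 0.0698, edgeR), in DESeq2 (0.113) and with the top 5% of cells (0.08). Of 7 neurogenic transcription factors tested, 2 were called higher and 2 lower, with a median of 0.10. The sensory neuron factor Pou4f1 had 36 UMIs in the 813 Celf5-high cells and 52 in the 4068 low-score cells, 4.09, 3.81, 5.21 and 3.38 against 1.05, 0.99, 1.09 and 1.45 CPM (edgeR fit, log2 fold change 1.85 ± 0.35, adjusted p = 7.99e-05). Rest, the repressor of neuronal genes in non-neuronal cells, was also higher, from 143 ± 6.15 to 193 ± 17.1 CPM, a log2 fold change of 0.44 ± 0.053 (adjusted p = 1.06e-07, edgeR). Tcf4, a bHLH partner of proneural factors, was lower, at -0.43 ± 0.047.

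Progenitor genes moved in both directions. Of 14 tested, 2 were called higher and 7 lower (24.8% and 22.3% of all genes), with a median of -0.23. Nes, the neural stem cell intermediate filament, was at 44.4, 55.9, 50.1 and 49.2 CPM in Celf5-high pools and 133, 141, 148 and 140.5 CPM in low-score pools, a log2 fold change of -1.49 ± 0.068 (adjusted p = 7.21e-16, edgeR). Id3, an inhibitor of bHLH factors, went from 620.2 ± 11.7 to 321 ± 43.9 CPM, a log2 fold change of -0.95 ± 0.048. Notch1, the receptor that holds neural progenitors back from differentiation, rose from 372 ± 15.5 to 686 ± 20.1 CPM, a log2 fold change of 0.88 ± 0.036 (adjusted p = 9.57e-17, edgeR). Among the progenitor markers used to check cell identity, Hes5, Pax6 and Sox1 had no UMI in either pool.

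Dopaminergic markers were few. Ddc, Lmx1a, Pitx3 and Slc6a3 had no UMI in either pool, and Th had 0 in Celf5-high cells and 2 in low-score cells. A count of 0 in the 8767604 UMIs of the Celf5-high pools allows a level of up to 0.34 CPM (3 counts, counting error only). Of 4 genes with enough counts to test, 0 were called higher and 1 lower (24.8% and 22.3% of all genes). That was Foxa2, a floor plate and dopaminergic progenitor factor, at 7.01, 8.90, 11.2 and 6.75 CPM in Celf5-high pools and 16.9, 14.7, 14.7 and 13 CPM in low-score pools (edgeR fit, log2 fold change -0.76 ± 0.17, adjusted p = 0.000471). En1 was at 8.75 ± 0.47 against 9.24 ± 1.13 CPM and Nr4a2 at 3.47 ± 1.69 against 4.84 ± 1.18 CPM, and neither passed the test (adjusted p = 0.835 and 0.281, edgeR). The remaining gene of the 4 had the lowest log2 fold change, -1.41, and was not called either. Among the identity markers, Aldh1a1 had 6 UMIs in Celf5-high cells and 86 in low-score cells.

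Glial genes were also mixed, with a median of -0.50. Of 9 tested, 2 were called higher and 2 lower (24.8% and 22.3% of all genes). Il33, a nuclear cytokine of glia and stromal cells, was at -1.57 ± 0.14, from 29.0 ± 2.58 to 9.51 ± 3.36 CPM, and Cspg4 (NG2), a proteoglycan of oligodendrocyte progenitors and pericytes, at 1.31 ± 0.086, from 23.1 ± 1.52 to 57.2 ± 3.78 CPM. Aldh1l1 was called higher at 0.91 ± 0.25 (adjusted p = 0.00434, edgeR), a call that was lost without replicate 2 (adjusted p = 0.0670) and with the top 5% of cells (0.162). The oligodendrocyte factors Olig1, Olig2 and Sox10 had no UMI in either pool. The 9 oligodendrocyte markers together were at 17.5 to 21.9 CPM in Celf5-high pools and 37.6 to 44.1 CPM in low-score pools, and the 5 astrocyte markers at 9.01 to 16.5 and 15.2 to 18.2 CPM. Markers of other lineages were nearly absent, with 2 UMIs of 4 microglia and blood markers and 9 of 3 endothelial markers in the Celf5-high cells (16 and 21 in low-score cells), all of the endothelial UMIs in Celf5-high cells being Pecam1. The only gene of a microglia, blood and endothelial list with enough counts to test was the hemoglobin gene Hba-a1, at 7.59, 16.9, 11.2 and 9.16 CPM in Celf5-high pools and 0.58, 2.15, 1.96 and 1.09 CPM in low-score pools. Its log2 fold change was 2.91 ± 0.25 (adjusted p = 1.43e-10, edgeR), and it has a near-identical paralog.

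Mesenchymal genes were lower as a group. Of 18 tested, 0 were called higher and 16 lower (22.3% of all genes were), with a median log2 fold change of -0.91 against -0.02 for all genes. Besides Acta2, the matrix gene Col3a1 had 2 UMIs in Celf5-high and 78 in low-score cells and the myosin light chain gene Myl9 5 and 153 UMIs. Col3a1 lost its call without replicate 3 (adjusted p = 0.113, edgeR). The 7 mesenchymal markers used to check cell identity summed to 375 to 493 CPM in Celf5-high pools and 904 to 971 CPM in low-score pools, with Thy1 at 0 UMIs in Celf5-high and 1 in low-score cells. Their part in the other differences was not tested.

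Targets of the tumour suppressor p53, which switches on genes of cell cycle arrest, DNA repair and apoptosis after damage, were higher. Of 25 tested, 22 were called higher and 0 lower, with a median log2 fold change of 0.68 against -0.02 for all genes, and 24.8% of all genes were called higher. Ercc5, a repair endonuclease, was at 366, 377, 372 and 349 CPM in Celf5-high pools and 177, 186, 177 and 174 CPM in low-score pools, a log2 fold change of 1.04 ± 0.041 (adjusted p = 4.71e-17, edgeR). Pmaip1, a pro-apoptotic BH3 protein, rose from 28.0 ± 1.80 to 79.0 ± 4.62 CPM (1.49 ± 0.075), and Sesn1, a stress-induced regulator of mTORC1, from 23.7 ± 2.43 to 48.9 ± 7.18 CPM (1.06 ± 0.10). The 3 genes that were not called were Bbc3, Gdf15 and Tigar, at 0.05, -0.18 and 0.01. Mdm2, Btg2 and Cdkn1a, the feedback ligase and arrest genes of the pathway, were at 0.87, 0.96 and 0.24. These 3 and the genes not called were named after their values were seen.

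**Figure D4:**
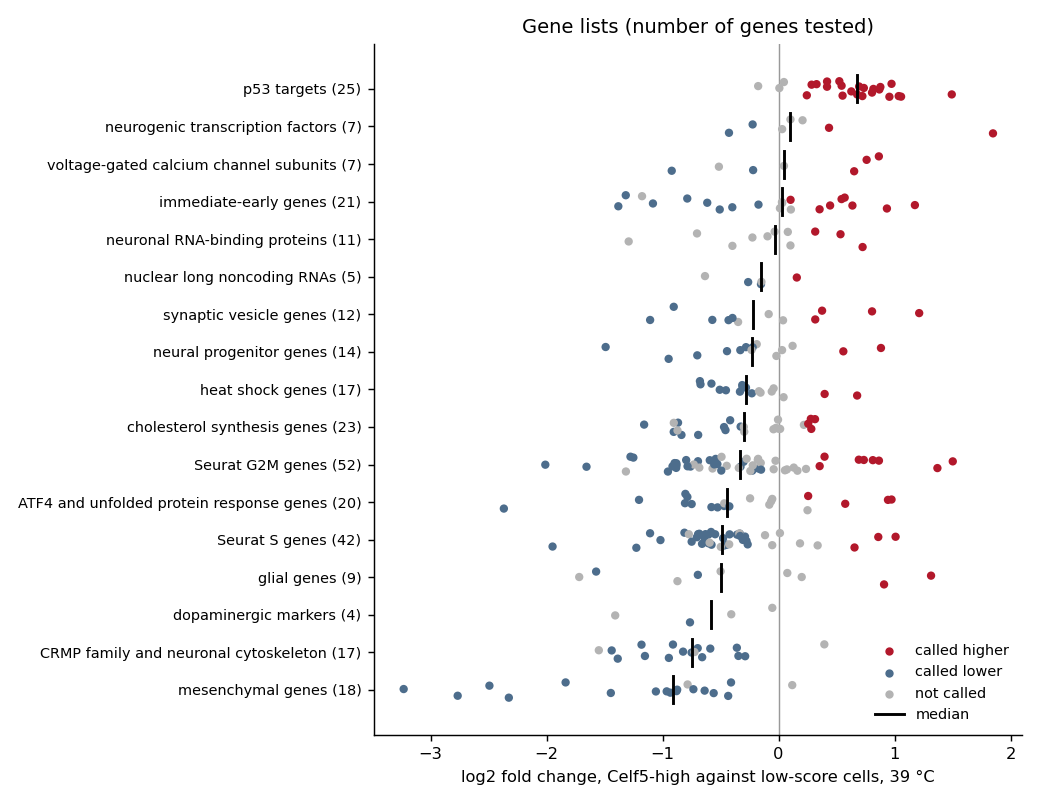
Log2 fold change between Celf5-high and low-score cells at 39 °C (x axis) of every tested gene of 17 lists (y axis, number of genes tested in brackets), with genes called higher in red, called lower in blue, not called in grey and a black bar at the median. The bar of the p53 targets lies at 0.68 and those of the mesenchymal and neuronal cytoskeleton lists at -0.91 and -0.75.

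A smaller share of Celf5-high cells was assigned to S phase in every library. Phase scores assigned 8.42%, 7.14%, 7.33% and 2.82% of Celf5-high cells to S in replicates 1 to 4, against 14.3%, 13.8%, 12.3% and 13.2% of low-score cells. The share was lower in 4 of 4 libraries, by 6.98 ± 2.38 percentage points (SD), and 2 of the 16 sign assignments of an exact two-sided sign-flip test over 4 libraries are as extreme, the fewest that this design allows (adjusted p = 0.25 over 8 measures). After thinning, the means were 6.96% and 13.9%. Of the 42 S genes, 3 were called higher and 29 lower (24.8% and 22.3% of all genes), with a median of -0.49. The lower ones included Ung (-1.95 ± 0.36), Uhrf1 (-1.23 ± 0.19) and Exo1 (-1.11 ± 0.28). In cells assigned to G1 alone, 22% of all genes were called lower, beside 12 of 41 genes of the S list and 6 of 50 of the G2M list, so neither count stood out from the background. Uhrf1, Exo1 and the G2M gene Cenpf lost their calls (adjusted p = 0.186, 0.335 and 0.273, edgeR). G1 was assigned from these same lists, so G1 cells were chosen to score low on them. Lost calls of list genes in G1 cells were thus partly fixed in advance. Free RNA can enter phase scores, and its part was not tested.

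The G2M share did not separate the pools, with 4.80% ± 1.36 against 3.74% ± 1.22, higher in 3 of 4 libraries (exact sign-flip test, p = 0.375, adjusted 0.60). Of 52 G2M genes, 8 were called higher and 24 lower (24.8% and 22.3% of all genes), with a median of -0.34. Without replicate 3, 14 were called lower (18.7% of all genes), and in DESeq2 15 were (15.2% of all genes). The centromere protein gene Cenpf was at -1.66 ± 0.16 and Kif2c, with 5 UMIs in Celf5-high cells, was called lower (adjusted p = 0.0022, edgeR), whereas Cdc20, the activator of the anaphase-promoting complex, rose from 16.6 ± 1.21 to 47.2 ± 8.10 CPM (1.5 ± 0.10). The 4 markers of dividing cells summed to 60.7 to 97.6 CPM in Celf5-high pools and 122 to 159 CPM in low-score pools.

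Depth and RNA quality were close. The median cell had 15448, 9108, 9277 and 8023 UMIs in Celf5-high pools and 16798, 8962, 10322.5 and 7850 UMIs in low-score pools, higher in 2 libraries and lower in 2 (exact sign-flip test, p = 0.50). At 5000 UMIs per cell the median number of detected genes was 2144 ± 14.3 against 2112 ± 5.97, higher in 4 of 4 libraries. The median mitochondrial share was 8.03% ± 0.28 against 8.43% ± 0.32, lower in 4 of 4 libraries. Both had the smallest p of the exact sign-flip test (adjusted p = 0.25). Choosing the cells within 5 bins of depth left 5704 genes called.

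Stress and metabolic lists were counted in the same way, beside 24.8% of all genes called higher and 22.3% lower. Of 17 heat shock genes, 2 were called higher and 10 lower (median -0.28), with the inducible Hsp70 gene Hspa1b at -0.68 ± 0.11, the Hsp110 gene Hsph1 at -0.67 ± 0.081 and the co-chaperone Dnajb1 at 0.68 ± 0.063. Hspa1b has a near-identical neighbour, Hspa1a. Of 20 ATF4 and unfolded protein response genes, 4 were called higher and 10 lower (median -0.45), with the serine synthesis gene Psat1 at -1.20 ± 0.15 beside Phgdh and the p53-linked Sesn2 at 0.97 ± 0.068. Of 23 cholesterol synthesis genes, 4 were called higher and 9 lower (median -0.30), and the sterol enzymes Cyp51, Fdps and Sqle were at -1.16, -0.90 and -0.87. Immediate-early genes were split, 8 of 21 higher and 8 lower (median 0.03), with Fosl1 at 1.18 ± 0.067, Myc at -1.32 ± 0.21 and Klf2 at -1.38 ± 0.35. Of 5 nuclear long noncoding RNAs, 1 was called higher and 2 lower. Malat1 was at -0.15 ± 0.029, Neat1 at -0.26 ± 0.055 and Xist at 0.16 ± 0.035, and none of these 3 kept its call without the library block (adjusted p = 0.154, 0.107 and 0.0535, edgeR). Neat1 also missed it in DESeq2 (adjusted p = 0.0897).

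Thinning every cell to 5000 UMIs before ranking lowered the number of calls in several lists. It removed counts and ranked the cells anew on their thinned score counts, so the chosen cells could differ from those above. It also enlarged the comparison pools through ties at the median, to 760, 1837, 1807 and 1864 cells in replicates 1 to 4. The parts of these changes were not told apart. In thinned cells 9.43% of all genes were called lower, beside 9 of 16 mesenchymal genes, 8 of 16 neuronal cytoskeleton genes, 6 of 42 S genes, 7 of 52 G2M genes and 5 of 20 ATF4 list genes. Besides Acta2, Uchl1 and Gap43, the named genes Cacna1e, Cacnb1, Syngr1, Syn1, Pou4f1, Foxa2, Myl9, Klf2, Hspa1b, Sqle, Xist, Uhrf1, Exo1 and Kif2c kept their direction but lost the call in thinned cells, and Aldh1l1 turned to -0.05. In the ranking without Celf5, 10.2% of all genes were called lower, beside 8 of 17 neuronal cytoskeleton genes, 18 of 42 S genes and 6 of 20 ATF4 list genes. Under that ranking Uchl1, Gap43, Cacna1e, Cacnb1, Syn1, Aldh1l1, Col3a1, Klf2, Hspa1b, Exo1, Kif2c and Pla2g7 kept their direction but lost the call, and Xist turned to -0.05. Of the 25 p53 targets, 21 or 22 were called higher under every alternative run. In thinned cells 21 were, beside 13.6% of all genes, and in the ranking without Celf5 21 were, beside 12.5% of all genes.

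The same selection was made in the 4 libraries at 37 °C, where it gave 788 cells and 4509 comparison cells, all of the latter without a score UMI. The limit lay lower there, at 168 to 181 CPM of score UMIs, so the chosen cells of the 2 temperatures are not matched in Celf5 level (255 ± 11.1 CPM at 37 °C). Of 12097 genes tested at 37 °C, 5121 were called (42.3%), 2501 higher (20.7%) and 2620 lower (21.7%). A log2 fold change over 1 in size was reached by 643 of them (5.32%), 508 higher (4.2%) and 135 lower (1.12%), and the pools did not overlap in 36.3%. Among the 11706 genes tested at both temperatures, 1772 were called higher at both, 60.8% of those higher at 39 °C and 71.6% of those higher at 37 °C. For falls the shared 1499 genes were 56.7% and 57.7%. Of the genes lower by over 1 on the log2 scale, 55 were shared, 12.7% of those at 39 °C and 49.1% of those at 37 °C.

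The genes with the largest rises were mostly higher at 37 °C too. Hs3st6 was at 18.1 ± 1.63 against 1.14 ± 0.34 CPM at 37 °C (log2 fold change 3.96 ± 0.21) and Evpl at 28.9 ± 4.33 against 1.90 ± 0.29 CPM (3.92 ± 0.16). Slc29a4, Bglap2, Abcb1a, Fam13c and Cnst were at 3.92, 3.65, 2.31, 1.69 and 1.58 there (log2). Tlr2 was not called at 37 °C (0.09, adjusted p = 0.757, edgeR). Notch1, which is not among the largest rises, was at 443 ± 46.6 against 161 ± 15 CPM at 37 °C (1.46 ± 0.047). The p53 targets were called higher in 23 of 25 genes at 37 °C (20.7% of all genes were), with a median of 0.75. The share of S cells at 37 °C was 27.9% ± 5.14 in the chosen cells and 46.1% ± 2.70 in the comparison cells, lower in 4 of 4 libraries, and the G2M share 39.5% ± 5.44 and 30.4% ± 1.69, higher in 4 of 4, both at the smallest p of the exact sign-flip test.

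The size of the difference between chosen and comparison cells itself differed between temperatures for 2659 of 12023 genes (22.1%), 1359 more positive (11.3%) and 1300 more negative (10.8%) at 39 °C. Depth and RNA quality were less close at 37 °C. The median there was 10571 UMIs in chosen and 12553 in comparison cells, lower in 4 of 4 libraries. The mitochondrial share was 7.92% against 7.54%, higher in 4 of 4, whereas at 39 °C it was lower in 4 of 4. The part of these differences was not tested. Tlr2 was higher in Celf5-high cells at 39 °C and at 6.62 ± 1.19 against 6.2 ± 0.74 CPM at 37 °C, a difference of 2.84 ± 0.24 between the log2 fold changes (edgeR interaction, adjusted p = 1.08e-12). Gas1, a growth arrest protein of the cell surface, rose from 39.3 ± 4.16 to 186 ± 62.7 CPM at 39 °C and was at 40.5 ± 2.81 against 39.6 ± 5.24 CPM at 37 °C (difference 2.15 ± 0.15, adjusted p = 1.09e-15). Hmgb3, a chromatin protein, Cdc20 and Adamts2, a procollagen protease, followed with differences of 1.58 ± 0.13, 1.56 ± 0.12 and 1.46 ± 0.19. That of Cdc20, a gene of the list used to assign phases, was 0.36 in G1 cells alone (adjusted p = 0.539).

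In the other direction, Enpp2, which encodes autotaxin, the enzyme that makes lysophosphatidic acid, was lower in Celf5-high cells at 39 °C and higher in the chosen cells at 37 °C. Its 39 °C pools held 38.0, 20.8, 35.6 and 37.6 CPM in Celf5-high and 85.6, 81.9, 81.9 and 68.1 CPM in low-score cells, and at 37 °C its level was 14.8 ± 5.14 against 7.19 ± 1.40 CPM. The log2 fold changes were -1.28 ± 0.11 and 1.05 ± 0.16 and differed by -2.34 ± 0.22 (edgeR interaction, adjusted p = 9.93e-12). Pla2g7, a lipoprotein-associated phospholipase, had the same pattern, with log2 fold changes of -1.10 ± 0.11 and 1.15 ± 0.11, and Il33 likewise, with -1.57 ± 0.14 and 0.92 ± 0.24. For Grem1 the fold changes were -2.66 ± 0.24 at 39 °C and 0.34 ± 0.30 at 37 °C (adjusted p = 0.378), and for Acta2 -3.23 ± 0.27 and -0.48 ± 0.073. In thinned cells the difference for Acta2 was -0.03 (adjusted p = 0.968, edgeR interaction). When cells were ranked without Celf5 the difference between temperatures had an adjusted p of 0.601 for Enpp2 (with the opposite sign), 0.584 for Pla2g7, 0.237 for Il33, 0.481 for Grem1 and 0.255 for Adamts2.

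**Figure D5:**
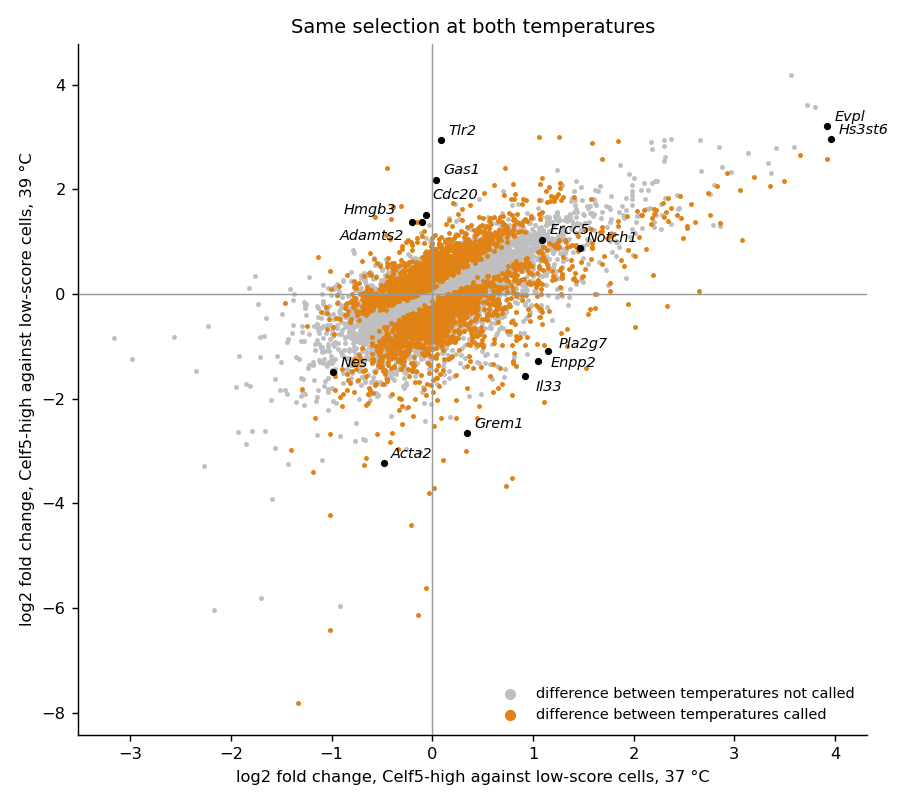
Log2 fold change of chosen against comparison cells at 37 °C (x axis) and at 39 °C (y axis), 1 point per gene tested at both temperatures, orange where the difference between temperatures was called and grey elsewhere, with named genes in black. Hs3st6 lies at 3.96 and 2.95, Tlr2 at 0.09 and 2.94, and Enpp2 at 1.05 and -1.28.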

How the data were processed

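Single-cell 3′ RNA-seq was measured in 8 libraries of SN4741 cells, 4 at 37 °C and 4 at 39 °C. The submitters' processing notes name Cell Ranger 3.0.1 and mm10, and the deposited values are the authors' raw UMI counts per gene and cell, 1 filtered matrix per library. The members and gene lists were chosen with earlier results of these data known.

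Counts were summed per library and pool, so that each library gave 1 pool of Celf5-high cells and 1 of low-score cells, with every tie at the median share counted as low-score. Genes with a mean of at least 5 counts over the pools were tested with edgeR 4.0.16 (quasi-likelihood test, TMM factors, library as a block because both pools came from the same library, Benjamini-Hochberg adjustment over all genes tested, threshold 0.05). The 4 score genes were left out of the tests but stayed in the totals. CPM in the gene results are scaled by TMM factors. Held-out tests ranked the cells on 3 score genes and tested the fourth. The difference between temperatures was the interaction of pool and temperature over 16 pools. Library measures were compared by an exact two-sided sign-flip test over 4 libraries. Cell cycle phases were assigned with Seurat 5.3.0, and thinned cells were drawn to 5000 UMIs without replacement. The text names the score genes, the 8 largest rises and falls with at least 20 CPM and the same direction in all 4 libraries, up to 3 genes of each list and up to 5 interaction genes in each direction, plus those said to be added. Identity markers were summed as counts. Scrublet (through scanpy 1.11.5) marked 2 cells above 0.5, so doublets were not removed. Gene positions came from GENCODE M21, with 77 of 77 named genes matched. On simulated counts with 100 genes changed by 0.5 and 100 by 1 (log2) in the 39 °C comparison, 61 and 83 were recovered, with 3 false calls among 11909 genes. Apart from these changes, both simulated pools of a library had the same profile, with an assumed fixed dispersion and no ranking of cells. These rates therefore check the fit and need not hold for the measured pools. Alternatives covered scaling, filters, DESeq2 1.42.0, the block, thinning, cell limits and each library left out.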

Additional observations from a re-analysis of the deposited data

Results flagged for a closer look

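The difference between chosen and comparison cells differed between 39 °C and 37 °C for 2659 genes (edgeR interaction test). The 5 named genes with the most positive difference were Tlr2 (2.84), Gas1 (2.15), Hmgb3 (1.58), Cdc20 (1.56) and Adamts2 (1.46), on the log2 scale. The 5 with the most negative one were Grem1 (-3.0), Acta2 (-2.76), Il33 (-2.50), Enpp2 (-2.34) and Pla2g7 (-2.25).

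A single library lay far from the other 3 of its pool type in 12 of 158 groups of 4 values at 39 °C (7.59%), where chance gives about 5%. Among Celf5-high pools, replicate 1 was the highest for Abcb1a at 33.3 CPM and for the median UMIs per cell at 15448, and the lowest for Neat1 at 710.1 CPM. Replicate 4 was the highest for Acta2 at 11.1 CPM, and replicate 3 for Vamp2 at 72.9 CPM. Replicate 2 was the lowest for Uchl1 at 0.42 CPM, for Enpp2 at 20.8 CPM and for Pla2g7 at 16.5 CPM. Among low-score pools, replicate 2 was the lowest for Gap43 at 1.32 CPM and for Pmaip1 at 25.3 CPM, replicate 1 for Cenpf at 25.2 CPM and replicate 4 for Pla2g7 at 36.2 CPM.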

How the results depend on the processing

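Scaling, low-count filters, DESeq2 and cell limits left the 39 °C count of 5612 genes between 4101 and 5786. It was 2643 in cells thinned to 5000 UMIs, 2829 with cells ranked without Celf5 and 1029 with a log2 fold change over 1 in size, the last 2 chosen after seeing the data. Without the library block it was 5279, and the block changed the call of no gene other than Neat1, Xist and Malat1 among those named. Leaving out a library gave 4831 to 5237. At 37 °C the count of 5121 became 2342 (thinned), 2517 (G1 cells) and 2129 (without Celf5). The interaction count of 2659 became 1634 with DESeq2, 623 thinned, 970 in G1 cells and 356 without Celf5. Thinning and ranking without Celf5 also ranked the cells anew, so the chosen cells could differ, and enlarged the comparison pools through ties at the median. The causes were not tested. Held-out Nova2 turned to 0.13 without the upper gene limit, and lay between -0.0725 and 0.0778 without replicate 1, 2 or 4 (without replicate 3 it fell under the count minimum). The member difference in median UMIs turned to 516.75 (thinned), that in median genes to -68.75 (all other cells), -4.125 (no upper gene limit) and -0.5 (highest doublet scores left out), and that in the thinned G2M share to -0.26 points (thinned ranking). Leaving out a library gave -15.0 to 61.0 for median genes and -0.34 to 1.97 points for the thinned G2M share. En1 turned to 0.29 (thinned), 0.0275 (depth bins) and 0.0146 (all other cells) and ranged from -0.1263 to 0.0133 over the left-out libraries. Aldh1l1 turned to -0.0457 (thinned), Xist to -0.0484 and the Enpp2 interaction to 0.38 (both without Celf5). Of 1728 other values for single genes and lists under the alternatives, 60 lost their call, 12 counts moved by over 1.5 times and 8 turned. Genes with few UMIs in the Celf5-high pools, as Nova2, Th and Dcx, were limited by depth.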
